A study of Mus musculus with 12 samples.

Results

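The transcripts of 10 antigen presentation genes were followed in the calvaria of 12 mice. The rule lists the genes by name and uses no measured value, but they were listed with earlier results of these data known. H2-K1, H2-D1, H2-T23, H2-Ab1, H2-Aa, H2-Eb1, H2-DMa, Tap1 and Psmb8 lie in the mouse major histocompatibility complex, called H2, on chromosome 17, which also carries Runx2. B2m lies on chromosome 2 and served as a member of the same pathway outside that chromosome. The 10 genes are part of 23715 genes with a value and all of them are among the 13059 genes that were tested.

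The H2 complex encodes the proteins that display peptides to T cells. Class I molecules, made of a heavy chain and the light chain encoded by B2m, are found on nearly all nucleated cells and show peptides that the proteasome has cut and that the TAP transporter has carried into the endoplasmic reticulum. Class II molecules, made of an alpha and a beta chain and guided by the invariant chain Cd74, are made mainly by dendritic cells, B cells and activated macrophages, so that in bone they come mostly from blood-derived cells and not from osteoblasts. Interferon raises the transcripts of both classes, and inbred strains differ in their H2 alleles.

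The data came from 4 groups of 3 mice, all given by the labels as newborn C57BL/6 mice with calvaria as the tissue, while the methods of the study give parietal bone at postnatal day 2. R-Het mice were Runx2+/- and carried 1 intact Runx2 allele in every cell. R-WT mice were the WT mice of the same comparison, described in the study as littermates. P-KO mice were Med23-/- in mesenchymal stem cells, made with floxed Med23 alleles and Prx1-Cre, and P-Ctrl mice were their control littermates, labelled WT and described in the study as Med23 fl/fl. The Cre of the P-KO mice acts largely in craniofacial and ventral mesenchyme, so that leukocytes, which carry most class II transcripts, would keep their Med23 gene, and the floxed line had been backcrossed to C57BL/6J. The Runx2 mutants came from another laboratory, and the strain in which their null allele was made is not given in the sources used here. The methods give 3 mice per group, and which of the mice shared a litter is not given.

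RNA of whole tissue was sequenced, and the authors deposited FPKM values (sequenced fragments divided by transcript length and library size). The smallest values put the depth at 7.80e+06 to 1.17e+07 fragments per mouse. The 10 genes then rested on between roughly 21.3 fragments (H2-DMa in R-Het 3) and 1.43e+04 fragments (B2m in R-WT 1), so that the class II genes and H2-DMa were read far less precisely than B2m. Xist, the RNA of the inactive X chromosome, was at 37.8 to 49.1 FPKM in P-Ctrl 2, P-Ctrl 3 and R-WT 1 and below 0.07 FPKM in the other 9 mice, so that both mutant groups were male only. Med23, of which the floxed exons are a small portion of the transcript, was at 5.32 FPKM in P-Ctrl and 5.30 FPKM in P-KO mice on average. Runx2 was at 31.6 FPKM in R-WT and 33.5 FPKM in R-Het mice, so neither transcript level marked its mutant group. In the Med23 cross Runx2 was at 30.5 to 38.0 FPKM in P-Ctrl and 23.7 to 28.7 FPKM in P-KO mice (adjusted p = 0.127 by limma). It was thus lower without overlap there, as were 7.68% of all tested genes. Neither sequencing batches nor dates are given. The osteoblast markers were present at 1 FPKM or more in all mice (10 of 10 genes), as the labelled tissue asks.

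The H2 genes are switched on through short shared promoter elements. The stretch between the starts of Psmb9, which encodes an immunoproteasome subunit and is transcribed from the minus strand, and Tap1 on the plus strand is shown because both genes are read from it and Psmb9 was called in R-Het mice while Tap1 was not, a difference that was not tested. It is given on the plus strand of GRCm38.p6 (RefSeq, chr17:34187331-34187555). The promoter of H2-Aa (chr17:34287824-34288073, minus strand, the 250 bases before the start) is shown because H2-Aa had the log2 fold change furthest from 0 among the 10 genes in R-Het mice. Capitals mark the Y box CTGATTGG and the core TGACG of the cAMP response element, on either strand. In H2-Aa the copies of TGACG on opposite strands overlap in 1 run.
Psmb9-Tap1: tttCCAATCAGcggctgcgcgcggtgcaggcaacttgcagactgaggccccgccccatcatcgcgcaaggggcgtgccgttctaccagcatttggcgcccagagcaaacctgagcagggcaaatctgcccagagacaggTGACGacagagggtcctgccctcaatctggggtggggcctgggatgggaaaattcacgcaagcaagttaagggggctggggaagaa
H2-Aa: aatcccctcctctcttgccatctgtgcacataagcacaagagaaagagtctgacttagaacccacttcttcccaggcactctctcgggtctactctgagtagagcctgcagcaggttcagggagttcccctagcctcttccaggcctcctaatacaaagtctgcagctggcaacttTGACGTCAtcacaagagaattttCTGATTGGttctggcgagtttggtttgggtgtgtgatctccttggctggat

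The Y box stood in the 250 bases before the start of H2-D1, H2-T23, Tap1, H2-Aa and H2-Eb1, 5 of the 9 genes with a promoter in the table (none was given for H2-Ab1), against 3.83% of 32851 mouse promoters. TGACG was found in H2-K1, H2-D1, Tap1, B2m and H2-Aa and in 17.8% of all promoters. The interferon-stimulated response element was found in H2-T23 and B2m and in 2.98% of all promoters. TGTGGT, a core of the RUNX binding motif, stood in 1 of the 9, H2-DMa, and in 14% of all promoters. The 11-base kappa B palindrome, found in 0.0304% of all promoters, was shared by H2-K1 and H2-D1, and it is shown in capitals with its flanks because the classical class I genes carry nearly the same stretch, from chr17:34000438-34000467 on the minus strand and chr17:35262914-35262943 on the plus strand. The H2-K1 stretch lies inside the interval given for this gene below (chr17:33996012-34000619). The start used for the H2-K1 promoter was thus not the upper end of that interval. A match describes these letters and was not tested as a binding site.
H2-K1: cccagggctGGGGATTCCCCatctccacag
H2-D1: cccagggctGGGGATTCCCCatctcctcag

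The comparison of R-Het with R-WT mice asked how the transcripts of the H2 genes differed in mice that lack 1 allele of a gene on the same chromosome. The class II chains, Psmb8, H2-K1 and B2m were lower in R-Het mice at an unadjusted limma p under 0.05, with log2 fold changes from -0.91 for H2-Aa to -0.29 for B2m. That was 6 of the 10 genes, where 15.4% of all tested genes had such a p and 8.32% had it with a lower level. At an adjusted p under 0.05 limma called 0 of the 10, against 1.89% of all tested genes, and without moderation of the variance 0 were called as well and 2 had an unadjusted p under 0.05. All 10 log2 fold changes lay below 0, as did 43.9% of those of all genes, and their median was -0.31 against 0.02 over all genes. The 10 genes share libraries, cells and inducers, so they are not 10 separate observations of the genotype.

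**Figure D1:**
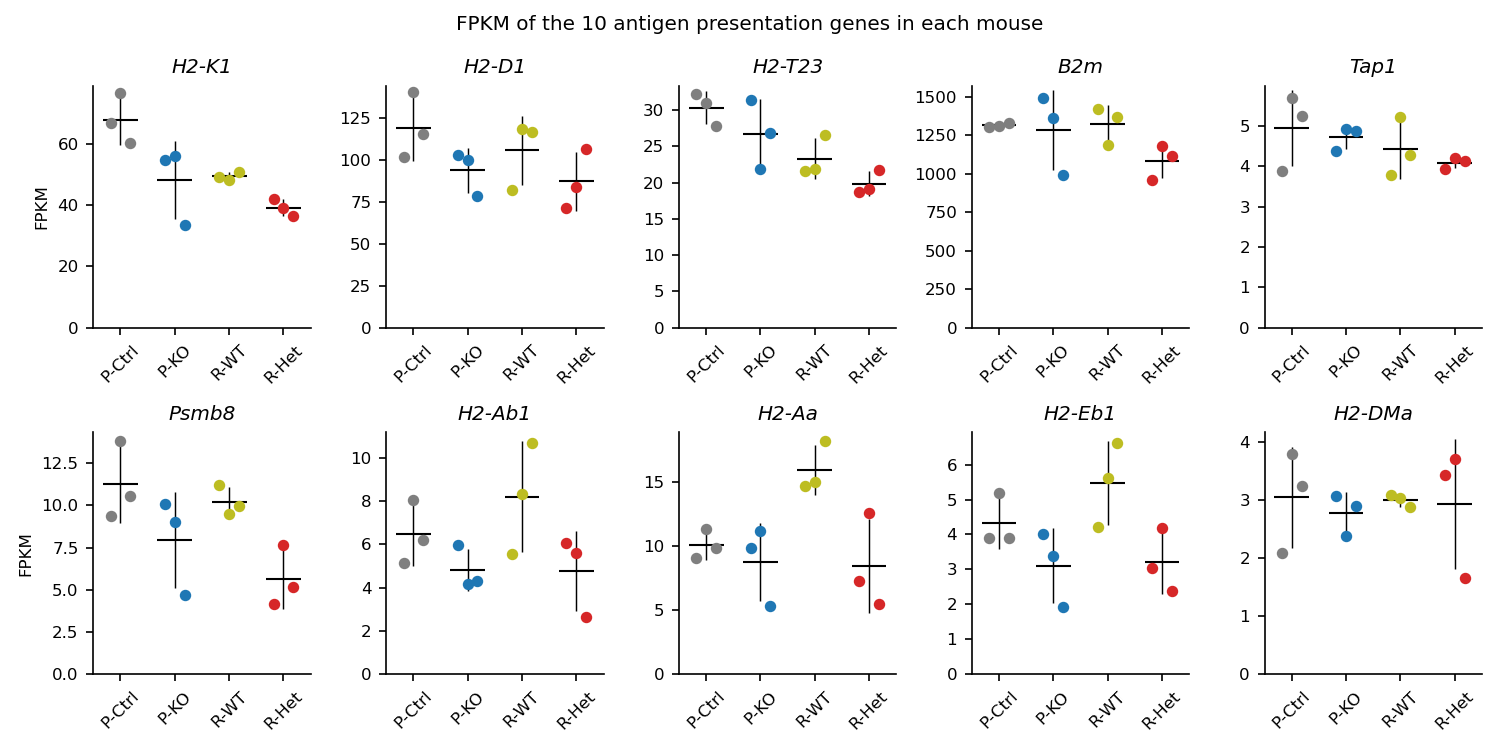
Each panel plots the FPKM of 1 gene in the 12 mice, with 3 points per group, the group mean as a horizontal line and 1 SD as a vertical line, on linear axes that start at 0. H2-K1 was highest in the 3 P-Ctrl mice and H2-Aa in the 3 R-WT mice, each above all 9 other mice.

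H2-K1 and H2-D1 encode the classical class I heavy chains of this strain, and H2-T23 encodes Qa-1, a class I molecule read by NK cells. H2-K1 (chr17:33996012-34000619) had 49.1, 48.2 and 50.8 FPKM in R-WT 1 to 3 and 41.9, 39.1 and 36.47 FPKM in R-Het 1 to 3. Every R-Het mouse lay below every R-WT mouse, which held for 10.4% of all tested genes in this direction. The log2 fold change was -0.33 (standard error, SE, 0.08, adjusted p = 0.0995 by limma). H2-D1 (chr17:35263094-35267497) had 82.3, 119 and 117 FPKM in R-WT and 71.3, 84.2 and 106 FPKM in R-Het mice. R-WT 1 lay below R-Het 2 and R-Het 3, so the groups overlapped, and the log2 fold change was -0.27 (SE 0.18, adjusted p = 0.536 by limma). H2-T23 (chr17:36029977-36032701) had 21.5, 21.8 and 26.6 FPKM in R-WT and 18.6, 19.1 and 21.8 FPKM in R-Het mice. R-Het 3 lay just above R-WT 1 and below the other R-WT mice, and the log2 fold change was -0.22 (SE 0.11, adjusted p = 0.399 by limma). Class I heavy chain genes are near copies of each other, and how reads that fit several of them were shared out is not given, so single values of H2-K1, H2-D1 and the H2-Q and H2-T genes are uncertain.

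B2m, the light chain of all class I molecules and by far the most abundant of the 10 transcripts, had 1419, 1184 and 1365 FPKM in R-WT and 960.2, 1176 and 1111 FPKM in R-Het mice. The groups did not overlap, although R-Het 2 lay only just below R-WT 2. The log2 fold change was -0.29 (SE 0.12, adjusted p = 0.309 by limma). H2-K1 and H2-D1 together amounted to 9.26%, 14.1% and 12.3% of the B2m level in R-WT mice and to 11.8%, 10.5% and 12.9% in R-Het mice. These percentages overlapped.

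Psmb8 and Psmb9 encode LMP7 and LMP2, the subunits that replace the constitutive Psmb5 and Psmb6 in the immunoproteasome and change which peptides are cut for class I display. Psmb8 (chr17:34198195-34201454) had 11.2, 9.46 and 9.94 FPKM in R-WT and 4.14, 7.64 and 5.18 FPKM in R-Het mice. The groups did not overlap, R-Het 2 was the highest R-Het mouse, and the log2 fold change was -0.78 (SE 0.18, adjusted p = 0.0784 by limma). Without R-Het 2 the log2 fold change was -0.99 and the adjusted limma p was 0.0285. As for its neighbour, Psmb9 (chr17:34182030-34187330), which is not among the 10, had 10.2, 11.5 and 10.08 FPKM in R-WT and 5.72, 6.62 and 5.93 FPKM in R-Het mice. It was the only gene of the other class I, class II and interferon lists that was called, with a log2 fold change of -0.71 (SE 0.09, adjusted p = 0.0184 by limma). The call was kept in 9 of 15 alternative settings, with adjusted p from 0.0183 to 0.201. Among these settings, male libraries only and leaving out R-WT 1 are the same fit, and both are counted.

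Tap1, which encodes a subunit of the peptide transporter and shares the stretch shown above with Psmb9, overlapped between the groups. It had 3.79, 5.21 and 4.27 FPKM in R-WT and 3.93, 4.20 and 4.13 FPKM in R-Het mice, with a log2 fold change of -0.08 (SE 0.12, adjusted p = 0.796 by limma). All R-Het values lay inside the R-WT range. The ratio of Psmb9 to Tap1 was 2.69, 2.20 and 2.36 in R-WT and 1.46, 1.58 and 1.44 in R-Het mice, without overlap. The ratio of Psmb8 to Psmb5 was 0.0651, 0.0531 and 0.0471 in R-WT and 0.0223, 0.0403 and 0.0336 in R-Het mice. That of Psmb9 to Psmb6 was 0.0561, 0.0661 and 0.0483 in R-WT and 0.0330, 0.0323 and 0.0365 in R-Het mice. Neither overlapped, and no ratio was tested. The constitutive subunits themselves were near level, with log2 fold changes of -0.08 for Psmb5 and -0.06 for Psmb6 (adjusted p = 0.797 and 0.855 by limma). The third immunoproteasome subunit, Psmb10, is encoded outside chromosome 17 and had a log2 fold change of -0.08 (adjusted p = 0.683 by limma), and its ratio to Psmb7 overlapped between the groups.

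**Figure D2:**
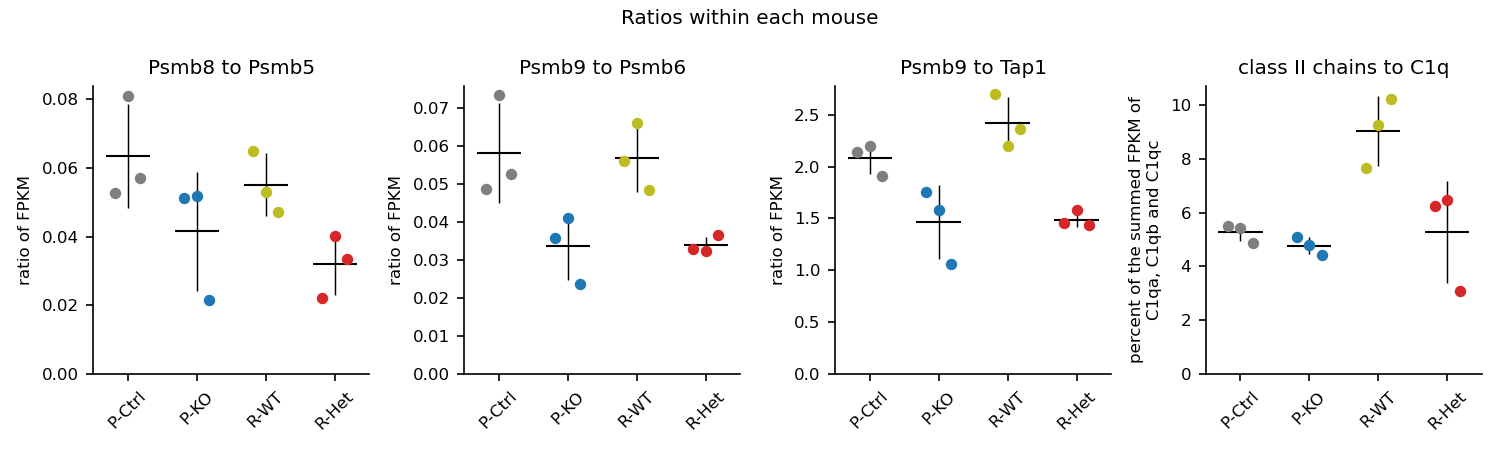
Ratios of FPKM within each mouse on linear axes from 0, with 3 mice per group, the group mean and 1 SD. The ratio of Psmb9 to Tap1 lay between 1.44 and 1.58 in R-Het mice and between 2.20 and 2.69 in R-WT mice, and the class II chains were 7.64% to 10.2% of C1q in R-WT mice and at most 6.46% in the other 9 mice.

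H2-Aa and H2-Ab1 encode the alpha and beta chain of the class II molecule I-A, and H2-Eb1 encodes the beta chain of I-E. H2-Aa (chr17:34282744-34287823) had 14.6, 15.0 and 18.1 FPKM in R-WT and 7.26, 12.5 and 5.47 FPKM in R-Het mice. The groups did not overlap, and R-Het 2 came closest to the R-WT mice. The log2 fold change was -0.91 (SE 0.24, adjusted p = 0.12 by limma), and without R-Het 2 it was -1.20 with an adjusted limma p of 0.0268. H2-Eb1 (chr17:34305867-34316674) had 4.21, 5.60 and 6.61 FPKM in R-WT and 3.04, 4.20 and 2.38 FPKM in R-Het mice. The groups stood apart by a hair, since R-Het 2 at 4.195 FPKM and R-WT 1 at 4.206 FPKM nearly met, and the log2 fold change was -0.63 (SE 0.19, adjusted p = 0.168 by limma). H2-Ab1 (chr17:34263227-34269418) had 5.58, 8.32 and 10.7 FPKM in R-WT and 6.04, 5.60 and 2.64 FPKM in R-Het mice. R-WT 1 lay among the R-Het mice, and the log2 fold change was -0.69 (SE 0.29, adjusted p = 0.301 by limma).

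H2-DMa encodes a chain of the editor that loads peptides onto class II molecules. It had 3.09, 3.03 and 2.87 FPKM in R-WT and 3.43, 3.70 and 1.65 FPKM in R-Het mice, where R-Het 3 was low and the others were above all R-WT mice. Its log2 fold change of -0.07 (SE 0.21, adjusted p = 0.912 by limma) thus averaged mice on both sides, and it became 0.19 without R-Het 3. Cd74, the invariant chain, had 15.8, 17.6 and 19.6 FPKM in R-WT and 9.39, 14.6 and 5.04 FPKM in R-Het mice, a log2 fold change of -0.91 (adjusted p = 0.194 by limma). Ciita, the master regulator of class II genes, stayed at or below 0.167 FPKM in every mouse and was not tested.

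Among the other genes of the pathway, 6 of the 21 measured class I heavy chain genes passed the filter on low values, and 5 of these 6 were below 0, 3 with an unadjusted p under 0.05 and 0 called by limma. H2-Q7 had the lowest log2 fold change, -0.73 (adjusted p = 0.136 by limma), with 0.406, 0.679 and 1.19 FPKM in R-WT and 0.0320, 0.0153 and 0.0889 FPKM in R-Het mice. H2-Q6, H2-Q7, H2-Q8 and H2-Q9 encode the nearly identical chains of Qa-2 and were therefore also added up, a sum chosen after their values were seen. The sum was 0.825, 0.723 and 2.63 FPKM in R-WT and 0.0553, 0.431 and 0.384 FPKM in R-Het mice. H2-T22 and H2-M3 were the other class I genes with an unadjusted p under 0.05, at log2 fold changes of -0.28 and -0.48 (adjusted p = 0.153 and 0.248 by limma). Of the other genes of peptide supply and loading, 6 of 11 tested genes lay below 0 and Psmb9 alone was called. The transporter partner Tap2 (-0.04) and the loading chaperone Tapbp (0.07) were near level in log2 fold change, as Tap1 was. Of 7 other class II pathway genes tested, 3 lay below 0, and Ifi30, a thiol reductase of antigen processing, was lower in all R-Het mice with a log2 fold change of -0.44 (adjusted p = 0.0696 by limma).

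**Figure D3:**
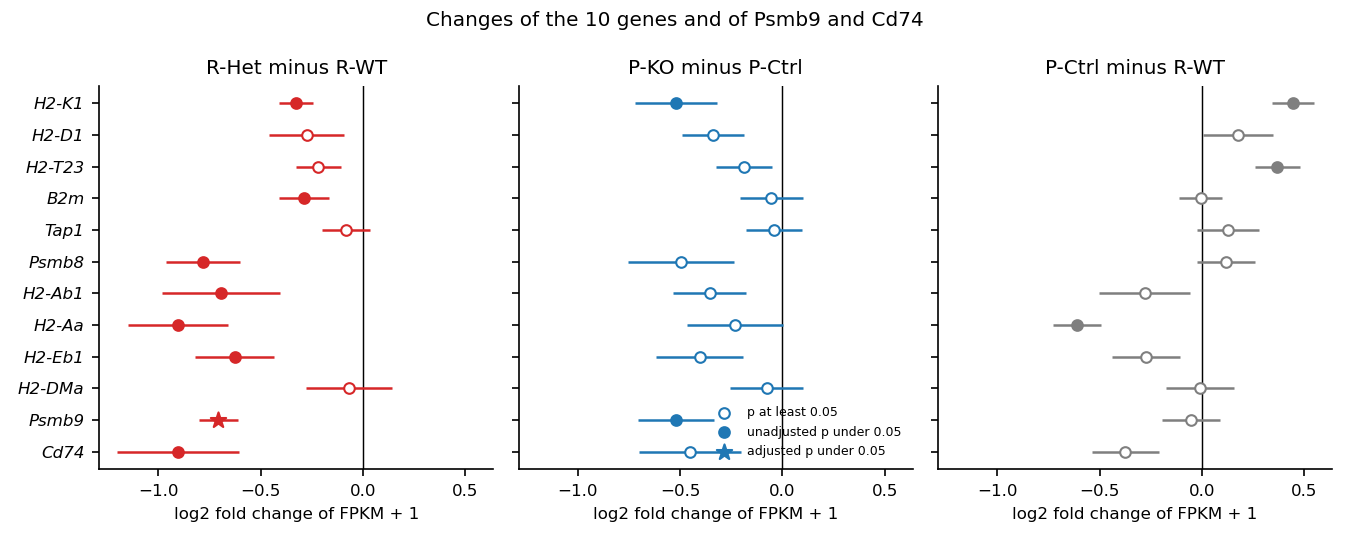
Log2 fold changes of FPKM + 1 with 1 standard error from limma in the 3 comparisons, for the 10 genes and for Psmb9 and Cd74. Filled circles have an unadjusted p under 0.05 and the star, Psmb9 in R-Het minus R-WT, an adjusted p under 0.05. All 10 genes lie left of 0 in both mutant comparisons and on both sides of 0 in P-Ctrl minus R-WT.

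Genes of the interferon response, which induces H2 genes, were examined beside them. Of 21 tested interferon response genes, 13 were below 0, 2 had an unadjusted p under 0.05 and 0 were called by limma, with a median log2 fold change of -0.07. Their summed level was 208, 163 and 194 FPKM in R-WT and 125, 147 and 277 FPKM in R-Het mice. R-Het 3 alone had high levels of Ifit1 (19.5 FPKM against at most 4.99 FPKM in the 11 other mice) and Cxcl10 (10.7 FPKM against at most 3.62 FPKM). Of the R-Het mice it had the lowest H2-K1, H2-Ab1, H2-Aa, H2-Eb1 and H2-DMa and the highest H2-D1 and H2-T23. Without R-Het 3, Cxcl10 had a log2 fold change of -1.49 (adjusted p = 0.0332 by limma). The highest log2 fold changes of these lists were those of the interferon genes Ifit3 and Ifit1, 0.46 and 0.40 (adjusted p = 0.788 and 0.848 by limma), and without R-Het 3 they were -0.34 and -0.58.

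In bulk tissue, fewer cells of a type and less RNA per cell cannot be told apart. The summed pan-leukocyte markers (5 genes, all detected) were 157, 163 and 162 FPKM in R-WT and 117, 121 and 120 FPKM in R-Het mice, a ratio of means of 0.741 without overlap (p = 0.1 in an exact two-sided permutation of the mice, which is the lowest that 3 against 3 can give, adjusted p = 0.275 over 33 such tests). Endothelial markers (6 of 6 detected) were at 101 to 110 FPKM in R-WT and 74.3 to 84.0 FPKM in R-Het mice, also without overlap. Limma called 1 of the 5 pan-leukocyte and 1 of the 6 endothelial genes lower, where 1.89% of all tested genes were called. These were Cd52 and Pecam1, with log2 fold changes of -0.81 and -0.57 (adjusted p = 0.0054 and 0.0184 by limma). Macrophage markers (9 of 10 measured, all detected) summed to 446 to 465 FPKM and 370 to 462 FPKM, a ratio of means of 0.945, and the dendritic cell markers to 12.7 to 13.6 FPKM and 10.07 to 17.6 FPKM. B cell markers summed to 13.4 to 15.4 FPKM and 11.7 to 15.5 FPKM, and neutrophil markers to 290.2 to 455 FPKM and 69.8 to 372 FPKM, both overlapping. Their ratios of means were 0.904 and 0.459. All 4 tested neutrophil markers were lower at an unadjusted limma p under 0.05, against 8.32% of all tested genes, and 0 were called. T cell genes were scarce, with Cd3d, Cd3e and Cd8a below 0.2 FPKM in every mouse and the list at 2.26 to 2.72 FPKM in R-WT and 1.08 to 2.09 FPKM in R-Het mice. Skeletal muscle markers, 1913 to 5637 FPKM in R-WT and 26.9 to 189 FPKM in R-Het mice, also stood apart. Osteoblast markers summed to 39891 to 46548 FPKM in R-WT and 30373 to 39131 FPKM in R-Het mice, again without overlap. Single osteoblast genes went both ways: 4 of the 10 lay below 0 and 6 above 0, with a median log2 fold change of 0.06. By limma, 2 of them were lower at an unadjusted p under 0.05, against 8.32% of all tested genes, and 0 were called. The part of these cells in the lower H2 levels was not tested.

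Set against the complement genes C1qa, C1qb and C1qc, which macrophages make, the class II chains H2-Aa, H2-Ab1 and H2-Eb1 came to 7.64%, 9.26% and 10.2% in R-WT and 6.25%, 6.46% and 3.08% in R-Het mice. These percentages did not overlap, while C1qa, C1qb and C1qc had log2 fold changes between -0.07 and -0.03. All 9 tested macrophage markers, C1q included, lay below 0 (median -0.07), as did 43.9% of all genes. Of the 9 markers, 2 were lower at an unadjusted limma p under 0.05, against 8.32% of all genes. Csf1r, 1 of these 2, did not overlap and had a log2 fold change of -0.25 (adjusted p = 0.232 by limma).

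**Figure D4:**
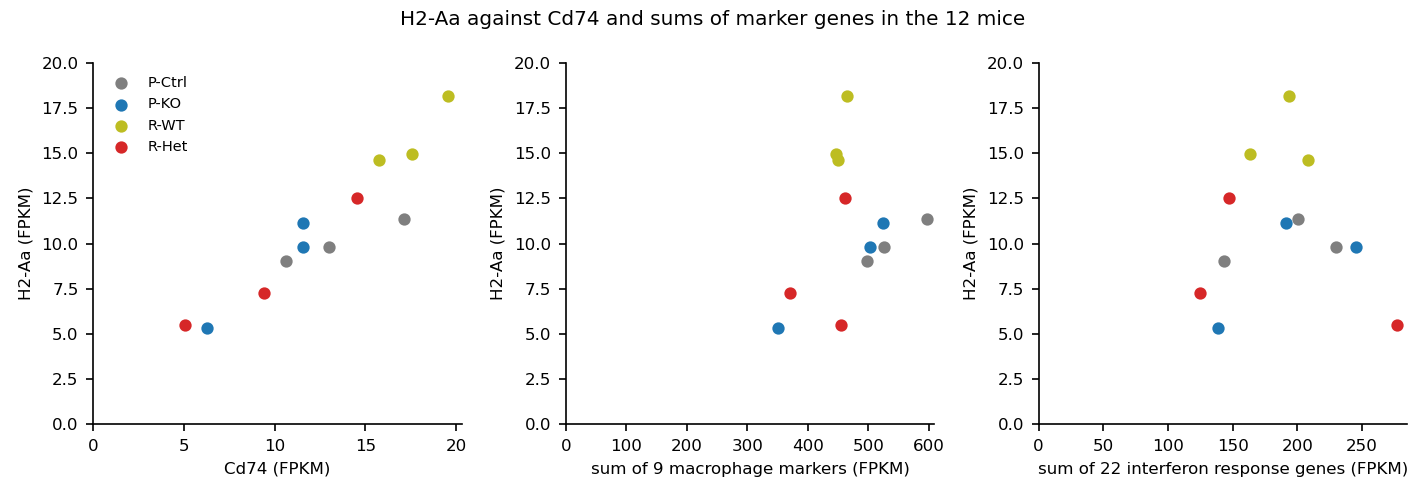
H2-Aa in FPKM on the vertical axis against Cd74, against the sum of 9 macrophage markers and against the sum of 22 interferon response genes in the 12 mice, on linear axes from 0, coloured by group. The points rise together with Cd74 (Pearson r = 0.95 on log2 values), and R-WT mice, between 446 and 465 FPKM of macrophage markers, lie above all other mice in H2-Aa.

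The comparison of P-KO with P-Ctrl mice asked the same of mice in which the deleted gene lies on another chromosome. All 10 log2 fold changes were again below 0, with a median of -0.29, where 38.7% of all tested genes lay below 0 and the median was 0.06. H2-K1 alone was lower at an unadjusted limma p under 0.05 and alone did not overlap. That was 1 of 10 genes, where 21.3% of all tested genes had such a p, 5.63% had it with a lower level and 7.68% were lower without overlap, and limma called 0 of the 10 against 1.57% of all genes. Without moderation of the variance 0 of the 10 were called and 0 had an unadjusted p under 0.05. The log2 fold changes of the class II chains lay nearer to 0 than in R-Het mice and that of H2-K1 further from it, but no difference between the crosses was called for any of the 10 (interaction contrast over all 12 mice). Limma called 0 of the 10 and 0.153% of all genes, and 0 of the 10 against 15.3% of all genes had an unadjusted p under 0.05, also without moderation of the variance. The contrast was below 0 for 7 of the 10 and for 55.7% of all genes, and lay furthest from 0 for H2-Aa, at -0.67 (SE 0.38, adjusted p = 0.435 by limma).

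H2-K1 had 66.8, 76.7 and 60.2 FPKM in P-Ctrl 1 to 3 and 54.8, 56.0 and 33.3 FPKM in P-KO 1 to 3. The groups did not overlap, and P-KO 3 stood well below its group. The log2 fold change was -0.52 (SE 0.20, adjusted p = 0.204 by limma), and it was -0.28 without P-KO 3. H2-D1 had 102, 141 and 116 FPKM in P-Ctrl and 103, 100.1 and 78.6 FPKM in P-KO mice, where P-Ctrl 1 lay below P-KO 1. Its log2 fold change was -0.34 (SE 0.15, adjusted p = 0.252 by limma). H2-T23 had 32.2, 30.9 and 27.8 FPKM in P-Ctrl and 31.4, 21.8 and 26.8 FPKM in P-KO mice, a log2 fold change of -0.19 (adjusted p = 0.462 by limma).

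B2m had 1304, 1308 and 1326 FPKM in P-Ctrl mice and 1489.6, 1362 and 993 FPKM in P-KO mice. The P-KO mice lay on both sides of the controls, and the log2 fold change was -0.06 (adjusted p = 0.867 by limma), or 0.12 without P-KO 3. Relative to B2m, H2-K1 and H2-D1 came to 12.9%, 16.6% and 13.3% in P-Ctrl and to 10.6%, 11.5% and 11.3% in P-KO mice, without overlap.

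Psmb8 had 9.38, 13.8 and 10.6 FPKM in P-Ctrl and 10.07, 9.02 and 4.70 FPKM in P-KO mice, overlapping through P-KO 1, with a log2 fold change of -0.50 (SE 0.26, adjusted p = 0.313 by limma). Psmb9 had 8.31, 12.5 and 10.02 FPKM in P-Ctrl and 7.68, 7.75 and 5.17 FPKM in P-KO mice. It did not overlap, and its log2 fold change was -0.52 (SE 0.18, adjusted p = 0.174 by limma). Tap1 had 3.88, 5.68 and 5.25 FPKM in P-Ctrl and 4.38, 4.91 and 4.87 FPKM in P-KO mice, a log2 fold change of -0.04 (adjusted p = 0.889 by limma). The ratio of Psmb9 to Tap1 was therefore 2.14, 2.20 and 1.91 in P-Ctrl and 1.75, 1.58 and 1.06 in P-KO mice, again without overlap. The constitutive subunits lay above 0 here, with log2 fold changes of 0.13 for Psmb5, 0.22 for Psmb6 and 0.34 for Psmb7 (adjusted p = 0.479, 0.228 and 0.0941 by limma). The ratio of Psmb8 to Psmb5 was 0.0527, 0.0810 and 0.0570 in P-Ctrl and 0.0513, 0.0519 and 0.0216 in P-KO mice. It did not overlap, but P-Ctrl 1 and P-KO 2 lay close together. For Psmb9 to Psmb6 the ratio was 0.0486, 0.0733 and 0.0526 in P-Ctrl and 0.0358, 0.0411 and 0.0238 in P-KO mice. For Psmb10 to Psmb7 it was 0.110, 0.0939 and 0.101 in P-Ctrl and 0.0765, 0.0786 and 0.0634 in P-KO mice. Neither overlapped, and no ratio was tested. Psmb10 itself had a log2 fold change of -0.14 (adjusted p = 0.495 by limma).

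The class II chains had lower means in P-KO mice and overlapped in each case. H2-Aa had 9.06, 11.3 and 9.79 FPKM in P-Ctrl and 9.79, 11.1 and 5.31 FPKM in P-KO mice, so that P-KO 3 made the difference, and its log2 fold change of -0.23 (SE 0.24, adjusted p = 0.61 by limma) turned to 0.05 without P-KO 3. H2-Ab1 had 5.13, 8.07 and 6.21 FPKM in P-Ctrl and 5.95, 4.18 and 4.32 FPKM in P-KO mice, a log2 fold change of -0.36 (adjusted p = 0.296 by limma). H2-Eb1 had 3.89, 5.19 and 3.90 FPKM in P-Ctrl and 4.02, 3.37 and 1.92 FPKM in P-KO mice, a log2 fold change of -0.40 (adjusted p = 0.321 by limma). H2-DMa had 2.09, 3.79 and 3.24 FPKM in P-Ctrl and 3.07, 2.37 and 2.89 FPKM in P-KO mice, a log2 fold change of -0.08 (adjusted p = 0.839 by limma). P-KO 3 had the lowest value of its group for 6 of the 10 genes, and it also had the lowest pan-leukocyte sum of all 12 mice, 98.4 FPKM against 152 and 159.7 FPKM in P-KO 2 and P-KO 1, and the lowest macrophage sum, 350 FPKM. Without P-KO 3, 8 of the 10 log2 fold changes stayed below 0, and the part of leukocytes in these values was not tested. Osteoblast markers summed to 49784 to 52461 FPKM in P-Ctrl and 25954 to 33792 FPKM in P-KO mice, a ratio of means of 0.599 without overlap (exact permutation p = 0.1, adjusted p = 0.275). Skeletal muscle markers summed to 22.97 to 1388 FPKM in P-Ctrl and 602 to 4186 FPKM in P-KO mice, overlapping, with a ratio of means of 4.66. Their part in the H2 values was not tested either.

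Among other genes of the pathway, limma called 0 of 6 class I, 0 of 11 peptide supply and 0 of 7 class II genes in P-KO mice, against 1.57% of all tested genes. An unadjusted p under 0.05 was found for 0, 2 and 1 of them, against 21.3% of all tested genes. Of the 2 peptide supply genes 1 was lower and 1 higher, and the class II gene was lower. H2-Q7 had the highest log2 fold change, 0.79 (adjusted p = 0.281 by limma), and Ifi30 the lowest, -0.55 (adjusted p = 0.197 by limma). The interferon gene Isg15 had 0.41 (adjusted p = 0.629 by limma). The sum of H2-Q6 to H2-Q9 was 1.75, 3.86 and 1.60 FPKM in P-Ctrl and 3.39, 2.57 and 1.38 FPKM in P-KO mice, overlapping. In P-Ctrl 1, H2-Q7 itself was at 0.0553 FPKM against 1.53 and 1.48 FPKM in its group mates, while H2-Q9 was at 0.778 FPKM against 0.192 and 0.0199 FPKM. The estimates for these near copies thus differed between mice of the same group. Of 21 interferon response genes, 11 were below 0, 0 were called and 0 had an unadjusted p under 0.05.

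The normal mice of both crosses, P-Ctrl and R-WT, were compared because the H2 levels of each mutant are read against them. These mice also enter the comparisons above, so the values are not separate evidence. In this comparison cross, litter, cage and any batch cannot be told apart. H2-K1 and H2-T23 were higher and H2-Aa was lower in P-Ctrl than in R-WT mice, each without overlap. These were 3 of 10 genes with an unadjusted p under 0.05, against 9.43% of all tested genes (7.18% lower and 2.25% higher, and 10.8% lower and 3.89% higher without overlap), and limma called 0 of the 10 and 0.0383% of all genes, while without moderation 3 had an unadjusted p under 0.05 and 0 were called. Of the 10 log2 fold changes 5 lay below 0, as did 60% of those of all genes, and 3 did after either rescaling.

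The log2 fold change of H2-K1 was 0.45 (SE 0.10, adjusted p = 0.336 by limma). Its lowest P-Ctrl mouse, at 60.2 FPKM, lay above the highest of the 9 other mice, P-KO 2 at 56.0 FPKM. H2-T23 had a log2 fold change of 0.37 (SE 0.11, adjusted p = 0.394 by limma). H2-D1, which lies between them on the chromosome, overlapped, with a log2 fold change of 0.18 (adjusted p = 0.805 by limma). B2m overlapped, with a log2 fold change of -0.01 (SE 0.11, adjusted p = 0.994 by limma), and Psmb8 (0.12), Tap1 (0.13) and H2-DMa (-0.01) overlapped too. Outside the 10, Ifi30 and H2-Q10 had the highest log2 fold changes, 0.31 and 0.30, and Cxcl10 and Irgm1 the lowest, -0.53 and -0.42, with 0 called. Ifi30 and H2-Q10 were high in P-Ctrl 1, and without that mouse their log2 fold changes were 0.059 and -0.22.

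H2-Aa lay on the other side of 0, with a log2 fold change of -0.61 in P-Ctrl against R-WT mice (SE 0.12, adjusted p = 0.312 by limma), and the lowest R-WT mouse, at 14.6 FPKM, lay above all 9 other mice, of which R-Het 2 was highest at 12.5 FPKM. H2-Ab1, H2-Eb1 and Cd74 had log2 fold changes of -0.28, -0.27 and -0.37, and the class II editor chain H2-DMb1 had 0.26, none with an unadjusted p under 0.05. The class II chains came to 4.89% to 5.49% of C1q in P-Ctrl and to 7.64% to 10.2% in R-WT mice. Macrophage markers were 498 to 597 FPKM in P-Ctrl and 446 to 465 FPKM in R-WT mice, and the dendritic cell markers 15.5 to 19.5 FPKM and 12.7 to 13.6 FPKM, both higher in P-Ctrl mice without overlap (exact permutation p = 0.1 for each, adjusted p = 0.275). These lists lay on the other side from H2-Aa. B cell markers were 11.2 to 13.1 FPKM in P-Ctrl and 13.4 to 15.4 FPKM in R-WT mice, on the same side as H2-Aa. Skeletal muscle markers were also on that side, at 22.97 to 1388 FPKM in P-Ctrl and 1913 to 5637 FPKM in R-WT mice, without overlap. Osteoblast markers were on the other side, at 49784 to 52461 FPKM and 39891 to 46548 FPKM, again without overlap. The part of any of these cells in the H2-Aa levels was not tested.

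Across the 4 groups, the mean level of H2-K1 ordered as P-Ctrl (67.9 ± 8.27 FPKM, SD, n = 3), R-WT (49.4 ± 1.35), P-KO (48.1 ± 12.8) and R-Het (39.1 ± 2.72), and of these neighbours only P-Ctrl and R-WT did not overlap. H2-Aa ordered as R-WT (15.9 ± 1.95 FPKM, SD, n = 3), P-Ctrl (10.06 ± 1.16), P-KO (8.74 ± 3.05) and R-Het (8.43 ± 3.67), and again only the neighbours R-WT and P-Ctrl were apart. H2-D1 and Psmb8 had the order of H2-K1, and H2-Ab1 and B2m the order of H2-Aa, with overlap between all neighbours. R-Het mice had the lowest mean for 8 of the 10 genes. P-KO mice had it for H2-Eb1, with 3.10 FPKM against 3.21 FPKM in R-Het mice, and for H2-DMa, with 2.78 FPKM.

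Over the 12 mice, H2-Aa followed H2-Eb1 (Pearson r of log2 values 0.92) and H2-Ab1 followed H2-Eb1 (0.86), while H2-T23 and H2-Aa were unrelated (-0.03). Psmb8 followed Psmb9 (0.90) and B2m (0.88). These values are descriptions over 12 mice that share groups, libraries and depth. Outside the 10 genes, Cd74 was most like H2-Aa (0.95), and Slc4a1 (0.92), Mpp1 (0.90) and Tbxas1 (0.90) were also among the genes most like it. The genes most like H2-K1 were Lrrc25 (0.93), Sh2b2 (0.91), Aldh3b1 (0.90), Fermt3 (0.90) and Col13a1 (0.90). None of these lies on chromosome 17.

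The 9 members on chromosome 17 lie 8.46 to 10.5 Mb from the near end of Runx2 (chr17:44495987-44814797, minus strand, so that this is its 3′ end), on the centromeric side. The interval around them was examined for genes that set R-Het mice apart, since a null allele is inherited with the DNA around it. In the window from 30 to 40 Mb, which holds the H2 complex, 15.8% of 146 tested genes had an unadjusted p under 0.05 between R-Het and R-WT mice, near the 15.4% of all genes. In the window from 40 to 50 Mb, which holds Runx2, it was 21.3% of 75 genes, and 4 were called (5.33% against 1.89% of all genes). Over all of chromosome 17 the percentage was 16.2% of 629 genes, rank 6 of 20 chromosomes. In P-KO mice the same windows had 14.4% and 20%, against 21.3% of all genes, and chromosome 17 had rank 20 of 20. These are descriptions with no test of position.

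The genes of chromosome 17 with the smallest p in R-Het mice were Snora78, Atp6v0c and Tpsab1, all between 24 and 26 Mb and thus on the far side of the H2 complex from Runx2. A large log2 fold change was also seen elsewhere, in Apobec2, at -3.27. This gene is known from skeletal muscle and lies 3.92 Mb beyond the near end of Runx2. Snora64, close to Snora78 and thus in the same stretch as the genes above, had 2.87. Apobec2 and Snora64 were named after their values were seen. Tpsab1 (chr17:25343245-25345562), which encodes the mast cell tryptase mMCP-7, had 1.15, 0.715 and 0.262 FPKM in R-WT and 13.3, 23.3 and 14.2 FPKM in R-Het mice. Its log2 fold change was 3.38 (SE 0.25, adjusted p = 0.00303 by limma), and all 9 other mice were at or below 1.61 FPKM. As background, C57BL/6 mice carry a splice site change in this gene and make almost none of its product, while other strains make it. Tpsab1 has a close paralog beside it, Tpsb2, so reads could have been split between them. Atp6v0c, a proton pump subunit, was at 573 to 708 FPKM in R-WT and 174 to 222 FPKM in R-Het mice (log2 fold change -1.67, adjusted p = 0.00303 by limma). The small nucleolar RNA Snora78 was listed at 0 in all R-Het and P-Ctrl mice and at 4.39 to 6.24 FPKM in R-WT mice, and among P-KO mice it had 6.28 FPKM in P-KO 3 and was listed at 0 in the others, so no fold change is given. FPKM values carry no allele, and H2-Ea, whose transcript marks some H2 haplotypes, was not analysed here, so the H2 haplotypes of the mice were not tested.

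In P-KO mice the smallest p on chromosome 17 were those of Zfp959, Cdkn1a and Srsf3, with log2 fold changes of 0.90, -0.50 and 0.50 (adjusted p = 0.0211, 0.032 and 0.0359 by limma). Between the normal mice they were those of Snora78, Zfp959 and Pigf, with adjusted p of 0.000615, 0.186 and 0.19 by limma. None of the 10 antigen presentation genes was among them.

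**Figure D5:**
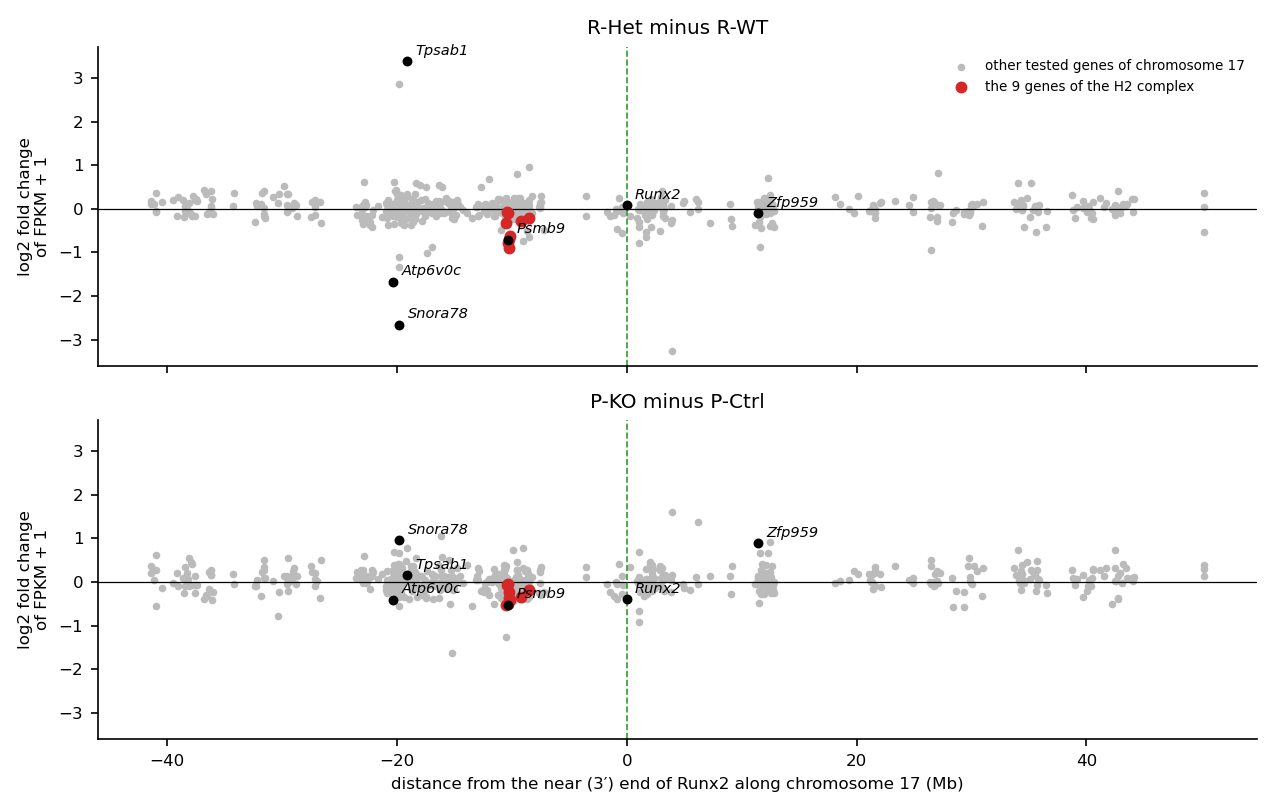
Log2 fold change of FPKM + 1 for the 629 tested genes of chromosome 17 against the distance from the near end of Runx2 in Mb, with R-Het minus R-WT above and P-KO minus P-Ctrl below. The dashed line is that end of Runx2, red points are the 9 H2 complex genes and black points are named genes. Tpsab1 (3.38), Apobec2 (-3.27, the unlabelled lowest point) and Atp6v0c (-1.67) are among the points furthest from 0 in the upper panel, and the H2 genes lie between -0.91 and -0.07.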

How the data were processed

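RNA of the calvaria of 12 mice (4 groups of 3, grouped by the deposited titles) was sequenced on the Illumina platform. For every mouse the authors deposited the FPKM of each RefSeq transcript. The submitters' processing notes name Bowtie 0.12.8 and mm10, and the program that estimated the values, and how it treated reads that fit several genes, are not given in the sources used here. The unit was inferred from values that scale with transcript length. Depth was estimated from the value of 1 fragment in transcripts of at least 2000 bases and is approximate. No read counts were used, so no counting intervals are given.

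Of 30411 transcripts, 29831 were matched to symbols by the RefSeq table and 184 by GENCODE, and 396 kept their identifier. FPKM was summed per gene. The 13059 genes that reached 1 FPKM in 3 or more of the 12 mice were tested on log2(FPKM + 1), a scale that understates changes of low genes, by limma 3.58.1 (R 4.3.3, mean-variance trend, 6 mice per fit, no covariates, Benjamini-Hochberg over all tested genes, threshold 0.05). An interaction contrast over 12 mice compared the crosses. Sums of marker genes were compared by exact two-sided permutation tests. The limma step was tested on simulated data. Tables and plots used Python 3.11.15, pandas 2.3.3, numpy 2.4.6 and matplotlib 3.10.9. Replicates are given as separate mice.

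The members and all gene lists were chosen with earlier results of these data known. Named were all 10 members, genes of the class I, class II, loading and interferon lists that were called or were among the 2 highest or 2 lowest changes of a comparison, the 5 genes most like H2-K1 and H2-Aa (of which 1 is not reported here), and per comparison the 3 genes of chromosome 17 with the smallest p. Xist, Runx2, Med23, Ciita, H2-T22, H2-M3, H2-Q6, H2-Q8, H2-Q9, Tap2, Tapbp, H2-DMb1, Tpsb2, Cpa3, Apobec2, Snora64, the proteasome and complement genes were named outside this rule. So were Csf1r, Cd52 and Pecam1. Promoters are RefSeq, GRCm38.p6. Alternatives were another pseudocount, no filter, a replicate block, rescaled values, no variance moderation, the most abundant transcript only, all mice in 1 fit, male libraries only and leaving out each mouse. For R-Het against R-WT, male libraries only and leaving out R-WT 1 are the same fit, and all counts of settings include both.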

Additional observations from a re-analysis of the deposited data

Results flagged for a closer look

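The change of Tpsab1 differed between the crosses. The log2 fold change was 3.22 larger in R-Het against R-WT mice than in P-KO against P-Ctrl mice (interaction contrast, SE 0.35, adjusted p = 0.00817 by limma), with all 3 R-Het mice at 13.3 to 23.3 FPKM and the other 9 mice at 0.262 to 1.61 FPKM. Other mast cell genes, chosen after their values were seen, overlapped between R-WT and R-Het mice. Tpsb2, the neighbouring tryptase, was at 29.7 to 37.7 FPKM in R-WT and 32.6 to 57.2 FPKM in R-Het mice, and Cpa3 at 18.9 to 22.3 FPKM and 17.9 to 36.8 FPKM. In P-KO against P-Ctrl mice both were higher without overlap, as were 2563 of the 13059 tested genes. The log2 fold changes were 0.78 for Tpsb2 and 1.11 for Cpa3 (adjusted p = 0.146 and 0.0763 by limma), while Tpsab1 had 0.17. The call was kept in 18 of 19 alternative settings and lost without moderation of the variance (adjusted p = 0.107). The H2 genes lie between Tpsab1 and Runx2, and whether the mice differ in DNA there was not tested.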

How the results depend on the processing

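The count of the 10 genes called at an adjusted p under 0.05 stayed at 0 in all alternatives for P-KO against P-Ctrl, P-Ctrl against R-WT and the interaction. For R-Het against R-WT it was 0 in all but 1, and ranged from 0 to 2 when mice were left out, with Psmb8 and H2-Aa called without R-Het 2. In R-Het mice 148 of 150 alternative estimates kept their sign, the exceptions being Tap1 without R-WT 2 (0.02) and H2-DMa without R-Het 3 (0.19). In P-KO mice 141 of 150 did, between normal mice 137 of 150 and for the interaction 167 of 190, and no value that changed sign was called in either setting. The number of the 10 with an unadjusted p under 0.05 went from 2 to 6 in R-Het mice, from 0 to 6 in P-KO mice (6 without P-KO 1), from 3 to 5 between normal mice and from 0 to 2 for the interaction.

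Calls over all genes were less stable. R-Het mice had 195 genes lower and 52 higher, but 3 and 2 without the filter, 56 and 39 with all 12 mice in 1 fit and 28 and 6 with male libraries only. P-KO mice had 73 lower and 132 higher, 86 and 57 with median-of-ratios factors, 65 and 42 with equal FPKM sums, 0 and 1 without the filter, 190 and 527 with all 12 mice in 1 fit and 0 and 0 with male libraries only, where 1 control was left. The most abundant transcript alone gave 92 and 19 in R-Het and 27 and 30 in P-KO mice. With mice left out there were 28 to 135 lower in R-Het and 0 to 13 in P-KO mice. Between normal mice 2 and 3 became 9 and 8 with male libraries, 3 and 5 with all 12 mice and at most 5 and 5 with mice left out. Without variance moderation 1, 0 and 1 genes were called in the 3 comparisons. For the interaction 8 and 12 became 20 and 17 with equal FPKM sums, 0 and 6 without the filter, 0 and 1 without variance moderation and 0 to 144 lower with mice left out.

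Whether the replicate numbers pair littermates is not given. Deviations of same-numbered mice correlated at 0.18, 0.259 and 0.0527 in the Med23 cross, above those of differently numbered mice (-0.201 to 0.0297). In the Runx2 cross they correlated at 0.00482, -0.0474 and -0.0836, against -0.0648 to 0.104. Same-numbered P-Ctrl and R-WT mice, of different crosses, had -0.0893, 0.23 and 0.0613. Pairing was not tested. With the number as a replicate block, 0 of the 10 genes were called in any comparison, and 69 and 21 genes overall in R-Het, 92 and 181 in P-KO, 1 and 1 between normal mice and 119 and 17 in the interaction. The causes of these shifts were not tested. Depth limits H2-DMa, H2-Eb1 and H2-Ab1 most, which rest on at most 70.1, 98.9 and 116 fragments per mouse.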
